A study of Mus musculus with 8 samples.

Results

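The genes described here are 42 ligands, receptors, Smads, antagonists and matrix binding proteins of the TGF-beta, BMP and activin pathway, out of 19938 genes measured. They were chosen by name, with earlier results of these data known, and matched exactly to the gene symbols of the array annotation. Each of the 42 had 1 probe set with a single symbol. RNA came from layers II to IV of the neocortex, isolated by laser microdissection on postnatal day 2, with 1 array for each of 8 pups. The 4 control pups were Bcl11a flox/+ and the 4 mutant pups Bcl11a flox/flox, and both groups carried Emx1 IRESCre/+. Cre expressed from the Emx1 locus acts in cortical progenitors that give rise to excitatory neurons and much of the glia, whereas interneurons, vessels, meninges and microglia arise elsewhere. Every comparison therefore sets the loss of both alleles of Bcl11a, a zinc finger transcription factor, against the loss of 1, and no pup without Cre was measured.

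Ligands of this superfamily act as dimers that bring type II and type I serine/threonine kinase receptors together on the cell surface. TGF-beta and activin receptors phosphorylate Smad2 and Smad3, BMP receptors phosphorylate Smad1, Smad5 and Smad9, and both branches use Smad4 to act on genes in the nucleus. Secreted antagonists and inhibitory Smads restrain the signal, and latent binding proteins anchor latent TGF-beta in the matrix. In the developing cortex BMPs are known for patterning the dorsal midline and favouring astrocytes, and TGF-beta for effects on neuronal polarity and migration.

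Values are log2 intensities as deposited, with array medians between 4.83 and 4.91, and differences are mutant minus control. The targeted gene Bcl11a read 10.34 to 10.59 in controls and 8.37 to 8.85 in mutants, so signal remained in the mutant tissue, and the position of its probe set relative to the deletion was not tested. Control 1 had the lowest array weight, 0.556, against 0.794 to 1.33 for the other arrays, and it was the highest or lowest control for 27 of the 42 genes, against 16 to 21 for the other controls. High Xist marked 2 controls and 1 mutant, so both groups held both sexes. All 7 measured markers of excitatory projection neurons lay above an empirical background of 4.31, the highest reading of 3 Y-linked genes in arrays with high Xist, while 5 of 6 choroid plexus markers lay at or below it. Of the 42 pathway genes only Bmp5, with a mean of 3.99 in mutants and 4.04 in controls, lay at or below that background.

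Of the 42 genes, 4 changed between mutant and control layers and 38 did not pass the test. The BMP ligand gene Bmp2 and the BMP receptor gene Acvr1 fell, and the activin subunit gene Inhbb and the BMP receptor gene Bmpr1b rose. These 4 of 42 genes (9.52%) had an adjusted p under 0.05 in limma's moderated test, against 4.15% of all genes. Because the list was chosen with earlier results of these data known, such shares describe it and do not test it. The test was fitted to all genes, dim ones included, with Benjamini-Hochberg adjustment. By direction, 2 of 42 rose against 2.36% of all genes, and 2 of 42 fell against 1.79%. Without the dimmest 30% of genes the shares that passed were 9.76% and 6.36%, and without the dimmest 50% they were 13.3% and 8.89%. In the same 4 genes every mutant array lay outside the range of the controls on one side, a share of 9.52% against 9.25% of all genes (2 higher against 5.46%, and 2 lower against 3.79%), so by this measure the pathway lay near the background. At an unadjusted p under 0.05 there were 9 of the 42, 3 higher and 6 lower. Of all 19938 genes 14% were past that level, 1703 higher and 1086 lower. The median difference was -0.02 for the 42 genes and 0.02 for all genes, and the median absolute difference was 0.11 and 0.07. In RNA from whole tissue, fewer cells of a type and less RNA per cell cannot be told apart.

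**Figure D1:**
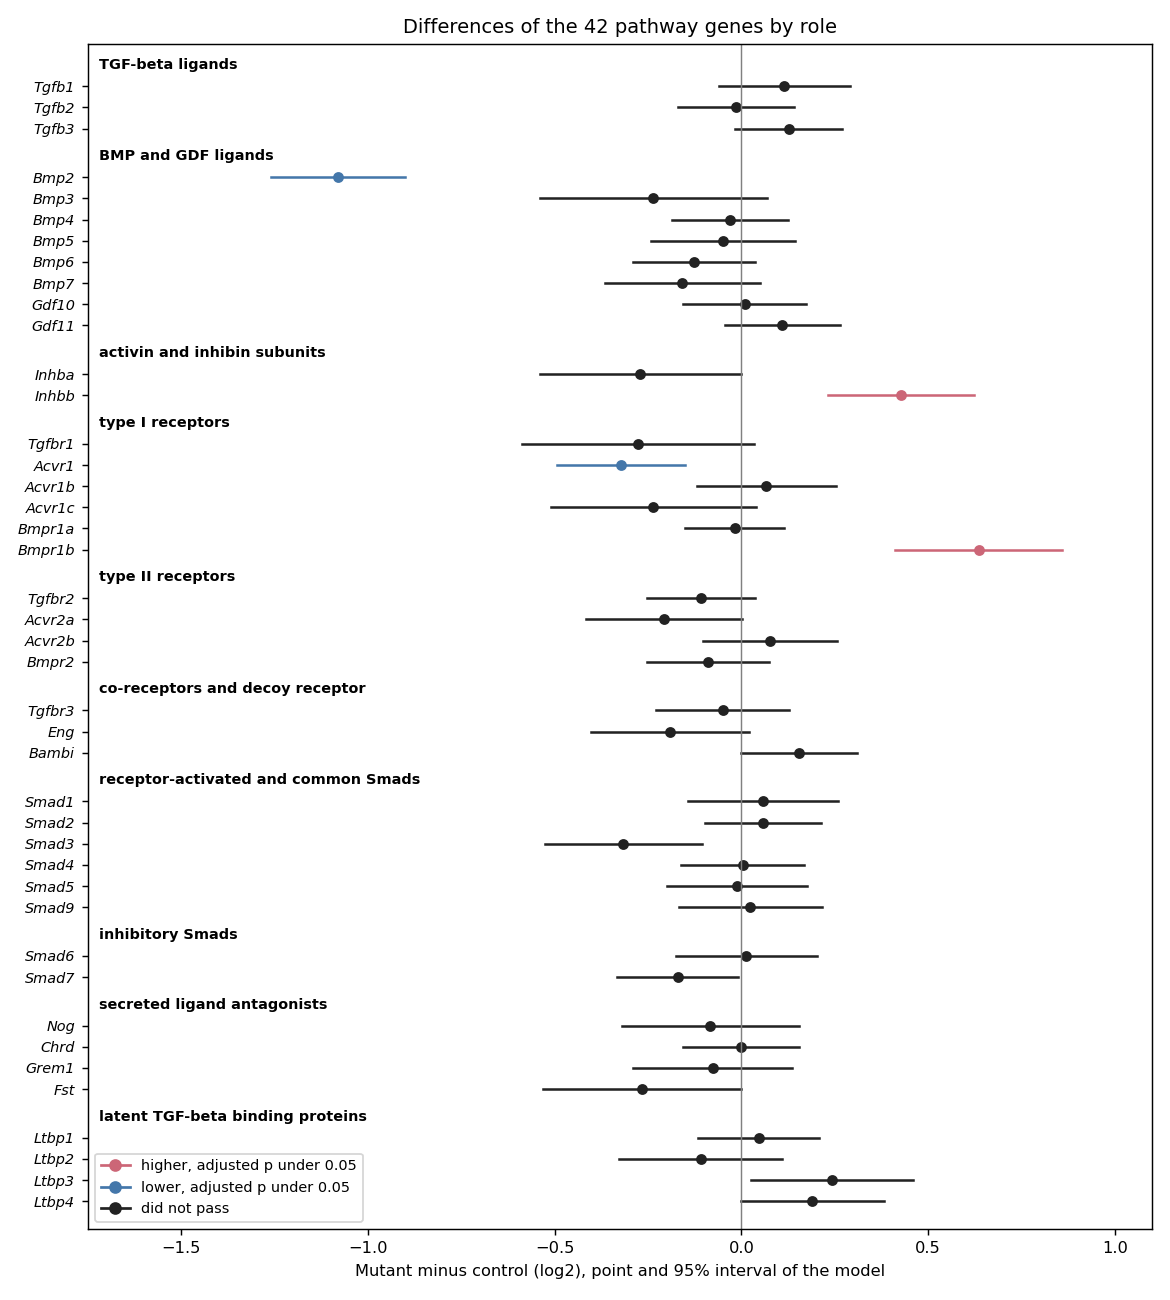
Mutant minus control difference (log2, x axis) of each of the 42 genes, grouped by role on the y axis, with the 95% interval of the limma model. Bmp2 lies far to the left at -1.08, Acvr1 at -0.32, Inhbb and Bmpr1b lie to the right at 0.43 and 0.63, and the other 38 genes lie between -0.32 and 0.24.

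Bmp2 encodes a secreted BMP that binds the type I receptors encoded by Bmpr1a and Bmpr1b. Its probe set (10476395, Entrez Gene 12156) read 6.06, 6.05, 6.35 and 6.20 in controls 1 to 4 and 5.17, 5.03, 4.95 and 5.18 in mutants 1 to 4. All mutant arrays were low, by an amount several times the spread within either group. The mean fell from 6.16 ± 0.14 to 5.08 ± 0.11 (SD, n = 4). Bmp2 was thus 2.11-fold lower in mutants, between 1.87 and 2.39 at 95% confidence (log2 difference -1.08, SE 0.08). The adjusted p was 6.53e-06 in limma, and an exact permutation test, two-sided, gave p = 0.0286, the smallest that 70 choices of 4 of 8 arrays can give. Every gene whose groups do not overlap gets this permutation p, here and below, so it restates the non-overlap. Among the 357 genes that fell in the mutant, Bmp2 ranked 26 by size of fall. With any 1 array left out the adjusted p of Bmp2 lay between 6.9e-06 and 7.92e-05.

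The other BMP and GDF genes did not pass. Of the 8 ligands in this group, Bmp2 fell and 7 did not pass, with differences from -0.24 to 0.11 for those 7. Bmp3, an atypical BMP that opposes other BMPs, differed by -0.24 (95% interval -0.54 to 0.07, adjusted p = 0.520), and its lowest array was mutant 4 at 5.39. Bmp7, a ligand of Acvr1 among other receptors, differed by -0.16 (interval -0.37 to 0.05). Of the 3 TGF-beta ligands none passed in limma, and none had an unadjusted p under 0.05. Their largest differences were 0.13 for Tgfb3 and 0.11 for Tgfb1, with intervals of -0.02 to 0.27 and -0.06 to 0.29.

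The activin subunit genes lay on opposite sides of 0. Inhbb, which encodes the beta B subunit of activins and inhibins (probe set 10357155, Entrez Gene 16324), read 5.84, 5.64, 5.56 and 5.51 in controls 1 to 4 and 6.08, 6.27, 5.94 and 5.97 in mutants 1 to 4. Each mutant array lay above the highest control, although the nearest arrays, control 1 and mutant 3, were only a little apart. The mean rose from 5.64 ± 0.14 to 6.07 ± 0.15 (SD, n = 4), by 1.34-fold with an interval of 1.17 to 1.54 (adjusted p = 0.0152 in limma, exact permutation p = 0.0286). Inhba, which encodes the beta A subunit, read 9.52, 9.42, 9.24 and 9.10 in controls and 9.38, 8.84, 9.15 and 8.82 in mutants. These groups overlapped, and the difference of -0.27 (interval -0.54 to -0.0026) did not pass (adjusted p = 0.350 in limma). The per-array difference of Inhbb minus Inhba, set up after these values were seen, ran from -3.78 to -3.59 in controls and from -3.30 to -2.57 in mutants, a mean shift of 0.70. Its absolute size depends on the probes, and it restates the values above. The call of Inhbb was lost without control 3, control 4 or mutant 2 (adjusted p = 0.0509, 0.0508 and 0.0532) and without variance moderation (0.157).

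**Figure D2:**
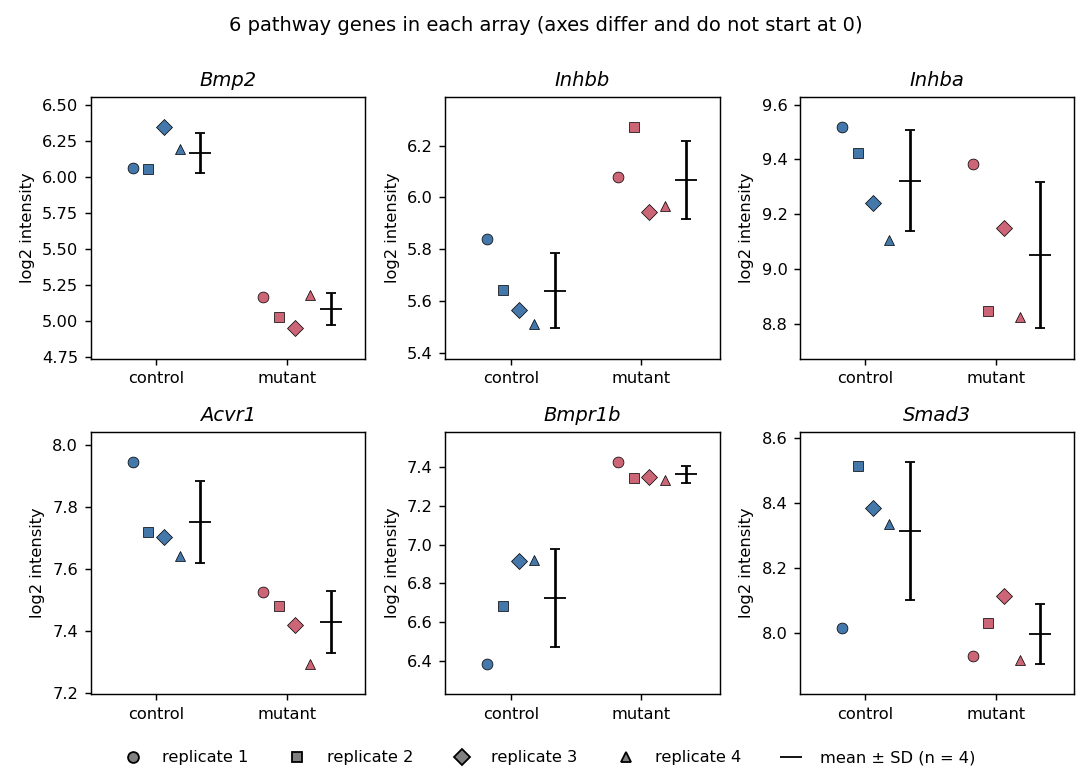
Log2 intensity (y axis) of 6 pathway genes in each control and mutant array, with a symbol for each replicate number and the mean ± SD of 4 arrays beside the points. The groups do not overlap for Bmp2, Inhbb, Acvr1 and Bmpr1b; for Inhba they overlap, and for Smad3 control 1 at 8.01 lies among the mutants.

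The type I receptor genes, which encode the kinases that phosphorylate Smads, moved both ways. Of 6 measured, Bmpr1b rose, Acvr1 fell and 4 did not pass. Bmpr1b encodes a BMP type I receptor also called ALK6 (probe set 10502451, Entrez Gene 12167). It read 6.39, 6.68, 6.91 and 6.92 in controls 1 to 4 and 7.42, 7.34, 7.35 and 7.33 in mutants 1 to 4. The controls were spread out, with control 1 lowest, and the mutants lay close together above them. The mean rose from 6.73 ± 0.25 to 7.36 ± 0.04 (SD, n = 4), a 1.55-fold rise with an interval of 1.33 to 1.81 (log2 difference 0.63, SE 0.10, adjusted p = 0.00256 in limma, exact permutation p = 0.0286). Leaving out any 1 array gave adjusted p-values from 0.00114 to 0.0109, and without control 1 the difference was 0.52. Without variance moderation Bmpr1b lost its call (adjusted p = 0.0969).

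Acvr1, a type I receptor of BMPs also called ALK2 (probe set 10482824, Entrez Gene 11477), read 7.94, 7.72, 7.70 and 7.64 in controls 1 to 4 and 7.52, 7.48, 7.42 and 7.29 in mutants 1 to 4. Every mutant lay below every control, with control 4 and mutant 1 nearest to each other. The mean fell from 7.75 ± 0.13 to 7.43 ± 0.10 (SD, n = 4), and the level in mutants was 1.25-fold lower, between 1.11 and 1.41 (adjusted p = 0.0375 in limma, exact permutation p = 0.0286). Leaving out control 4 or mutant 1 kept this call, and leaving out any other array ended it (adjusted p from 0.0655 to 0.120), as did fits with inferred sex as a covariate (0.0813) and without variance moderation (0.176). Bmpr1a, the other dedicated BMP type I receptor, differed by -0.02 (interval -0.15 to 0.11).

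The remaining type I receptors, Tgfbr1, Acvr1b, Acvr1c and Bmpr1a, differed by -0.28 to 0.07. Tgfbr1, the type I receptor of TGF-beta, differed by -0.28 (interval -0.59 to 0.03), and Acvr1c, a receptor of nodal and activin B also called ALK7, by -0.24 (interval -0.51 to 0.04). Of the 4 type II receptors, which bind ligand and activate type I receptors, none passed in limma and none had an unadjusted p under 0.05. Acvr2a, an activin type II receptor, differed by -0.21 (interval -0.41 to 0.0012) and Tgfbr2 by -0.11 (interval -0.25 to 0.04). Of the co-receptors and the decoy receptor, also with 0 calls and 0 at an unadjusted p under 0.05, Eng, a co-receptor of endothelial cells, differed by -0.19 (interval -0.40 to 0.02). Bambi, which resembles a type I receptor without its kinase, differed by 0.15 (interval -4.88e-04 to 0.31).

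The upstream sequences of the changed genes are shown for the 3 of the 4 that matched the RefSeq promoter table (assembly GRCm38.p6), in which 31 of the 42 genes had an entry by Entrez Gene identifier. Each run is the 250 bases before the first listed transcription start, 5′ to 3′ on the strand of the gene, and capitals mark a motif that was searched. The motifs were TGACCA, the core of the Bcl11a motif, CAGAC, a Smad-binding element, GGCGCC, a BMP-responsive Smad element, and TTCCTAGAA, the Bcl6 motif, on both strands.
Bmpr1b (chr3:141982265-141982514, minus strand): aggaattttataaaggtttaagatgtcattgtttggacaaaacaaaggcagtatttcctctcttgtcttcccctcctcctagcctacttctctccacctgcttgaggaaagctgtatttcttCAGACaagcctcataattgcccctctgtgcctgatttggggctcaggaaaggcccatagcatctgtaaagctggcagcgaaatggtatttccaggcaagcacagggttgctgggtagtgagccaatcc
Inhbb (chr1:119422249-119422498, minus strand): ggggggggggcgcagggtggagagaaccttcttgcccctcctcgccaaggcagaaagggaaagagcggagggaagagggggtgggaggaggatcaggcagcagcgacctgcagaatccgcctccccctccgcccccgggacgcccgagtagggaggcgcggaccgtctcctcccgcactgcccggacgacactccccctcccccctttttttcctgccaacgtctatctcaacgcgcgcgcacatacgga
Acvr1 (chr2:58566829-58567078, minus strand): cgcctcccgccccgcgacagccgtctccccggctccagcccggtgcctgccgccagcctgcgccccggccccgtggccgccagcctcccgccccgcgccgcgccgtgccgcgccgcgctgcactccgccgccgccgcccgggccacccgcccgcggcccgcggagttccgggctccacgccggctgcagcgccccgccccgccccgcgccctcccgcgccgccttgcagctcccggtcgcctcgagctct

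The runs differ in base composition: 46.8% of the bases of the Bmpr1b window were G or C, with 1 CpG, against 68% and 21 CpGs for Inhbb and 85.6% and 46 CpGs for Acvr1, where the median of 32851 windows was 52.4%. The Bmpr1b window held CAGAC once, beginning 128 bases before the start, and the Inhbb and Acvr1 windows held none of the 4 motifs. The table lists 2 further starts for Bmpr1b, whose windows overlap each other; 1 held CAGAC and the other TGACCA, each on the opposite strand, and no match overlapped another motif. Of all windows of this length, 42.2% held CAGAC, 11.4% TGACCA, 9.59% GGCGCC and 0.347% TTCCTAGAA. A match describes the letters alone, and binding was not measured.

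Among the Smads, the transcription factors that carry the signal, none of the 6 receptor-activated and common Smads passed in limma, and 1 had an unadjusted p under 0.05. That 1 was Smad3, an effector of TGF-beta and activin, which read 8.01, 8.52, 8.38 and 8.34 in controls 1 to 4 and 7.93, 8.03, 8.11 and 7.92 in mutants 1 to 4. Control 1 lay among the mutants and the other 3 controls lay above all of them. The difference was -0.32 (interval -0.53 to -0.11, adjusted p = 0.108 in limma, exact permutation p = 0.0857). Without control 1 the difference was -0.42 with an adjusted p of 0.00604, and with arrays weighted by their quality the adjusted p was 0.0300, while without any 1 of the other 7 arrays Smad3 did not pass. The other members of this group, Smad1, Smad2, Smad4, Smad5 and Smad9, differed by at most 0.06 in either direction. Of the inhibitory Smads, which are induced by the signal and block it, neither passed: Smad7 differed by -0.17 (unadjusted p = 0.0400 in limma, adjusted p = 0.323) and Smad6 by 0.01, a value that turned sign after quantile normalization and after centring arrays on the median.

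The secreted antagonists and matrix binding proteins also held no gene that passed. Fst, which binds activins, read 7.24, 7.38, 6.72 and 7.21 in controls and 6.76, 6.79, 6.87 and 7.06 in mutants, so that control 3 lay below all mutants. Its difference of -0.27 had an adjusted p of 0.353 in limma, and of 0.0242 without control 3. The BMP antagonists Nog, Chrd and Grem1 differed by -0.08, -0.0018 and -0.08. Among the 4 latent TGF-beta binding proteins, Ltbp3 and Ltbp4 differed by 0.24 and 0.19 with intervals of 0.03 to 0.46 and -2.43e-04 to 0.38 (adjusted p = 0.280 and 0.359 in limma). Of each of these groups 1 gene, Fst and Ltbp3, had an unadjusted p under 0.05.

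**Figure D3:**
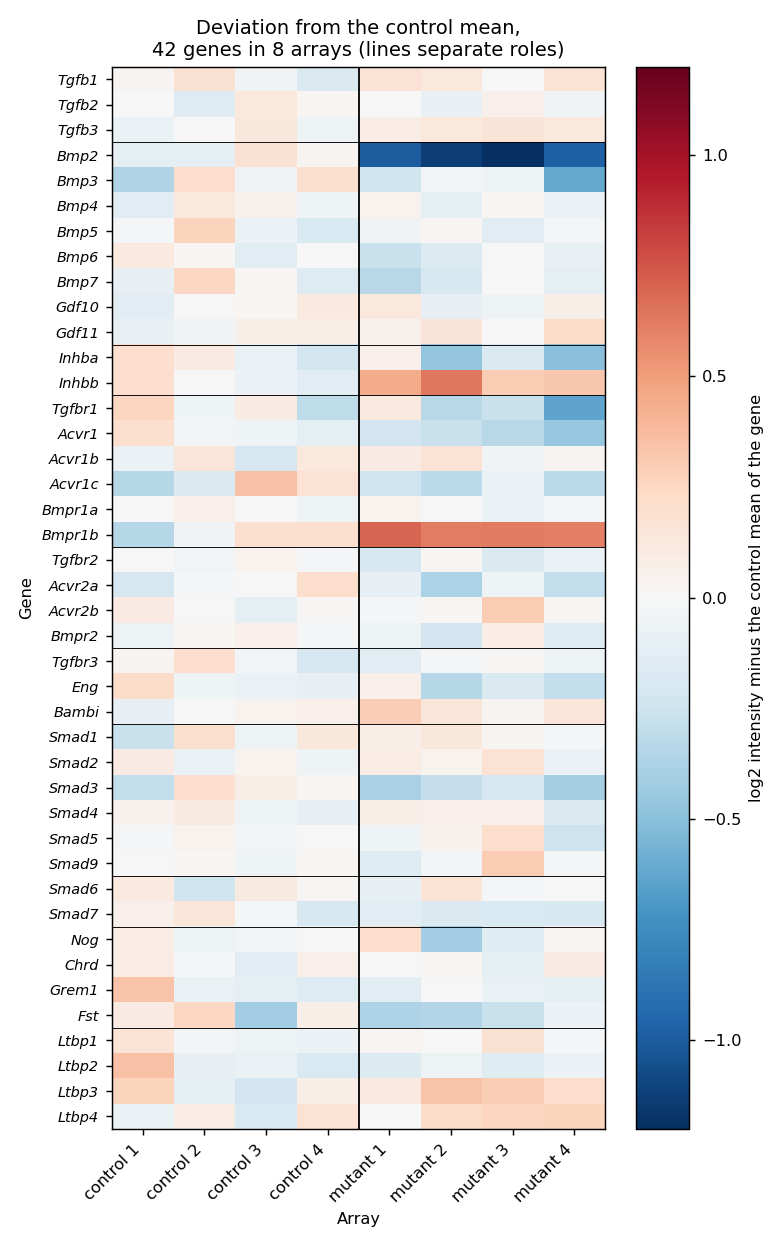
Log2 intensity minus the control mean of each gene (colour, red higher and blue lower) for the 42 genes (rows, by role) in each of the 8 arrays (columns). The row of Bmp2 is blue in all 4 mutants and those of Bmpr1b and Inhbb are red, while control 1 stands out from the other controls for Smad3, Bmpr1b, Ltbp2 and Grem1.

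A second list of 95 genes of the pathway, with 88 measured, covered further ligands, receptors, modulators, intracellular regulators and targets. Of these 3 rose and 1 fell, 4.55% in all, near the 4.15% of all genes. At an unadjusted p under 0.05, 8 were higher and 8 lower, against 1703 and 1086 of all 19938 genes. In 12 of 88 (13.6%, against 9.25% of all genes) the mutant arrays lay wholly above (5) or below (7) the controls. Crim1, a transmembrane protein that binds BMPs, read 6.66 to 7.20 in controls and 7.89 to 8.25 in mutants (difference 1.07, adjusted p = 6.49e-05 in limma). Rgmb, a membrane-anchored co-receptor of BMPs, read 8.22 to 8.31 in controls and 8.49 to 8.84 in mutants (difference 0.38, adjusted p = 0.0114). Fstl5, a follistatin-like protein, read 6.70 to 7.15 in controls and 6.47 to 6.68 in mutants and fell by 0.37 (adjusted p = 0.0426). Removing any single array except control 1 ended its call (adjusted p from 0.0569 to 0.131).

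Of 14 measured transcriptional targets, 1 rose: Id2, which binds helix-loop-helix factors and keeps them off DNA, read 9.46 to 10.16 in controls and 10.66 to 11.13 in mutants (difference 1.02, adjusted p = 5.77e-04 in limma). The related BMP target genes Id1, Id3 and Id4 differed by 0.16, 0.10 and 0.03, the last with a sign that turned with array weights, and did not pass (adjusted p = 0.454, 0.683 and 0.973). Without variance moderation Id2 and Rgmb did not pass either (adjusted p = 0.0714 and 0.0963). Hey1, a transcriptional repressor related to the Hes factors, read 6.10 to 6.68 in controls and 6.74 to 7.06 in mutants, and its difference of 0.43 (interval 0.18 to 0.69) lay close to the threshold without passing (adjusted p = 0.0591 in limma). It passed under 5 alternatives at the same threshold, among them without control 3 (adjusted p = 0.0383) and without control 4 (0.0469). None of 18 further ligands passed in limma, with 0 at an unadjusted p under 0.05, and 11 of them lay at or below the background. None of 21 intracellular regulators passed, with 4 at an unadjusted p under 0.05, 1 higher and 3 lower. In 4 of the 21 (19%, against 3.79% of all genes) the mutant arrays all lay below the controls, and in 0 all above (against 5.46%). In the other groups, the shares not overlapping in either direction were 0% for ligands, 14.3% for receptors, 14.3% for modulators and 21.4% for targets. Of all genes 9.25% did not overlap.

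Markers of other cell types moved to some extent with the genotype, and their part in the results above was not tested. Of 8 mural cell markers, 1 fell (Abcc9, -0.32) and 3 were lower at an unadjusted p under 0.05, and the mean log2 level of the list ran from 5.93 to 6.03 in controls and from 5.81 to 5.86 in mutants. Of 11 interneuron markers, 2 fell (Npy, -1.63, and Dlx1, -0.46), with list means of 7.06 to 7.28 and 6.88 to 7.00. At an unadjusted p under 0.05, 7 of these 11 were lower and 1, Calb2, was higher (0.86, adjusted p = 0.122 in limma), and 5 of 11 did not overlap between groups (45.5%, against 9.25% of all genes). Of 11 astroglial markers 1 fell (Vim, -0.36; list means 7.51 to 7.75 and 7.42 to 7.62), with 3 lower at an unadjusted p under 0.05. Of 6 Cajal-Retzius markers 1 fell (Reln, -0.57, with list means of 5.38 to 5.67 and 5.57 to 5.75). Calb2, which is on both this list and the interneuron list, was the 1 higher at that level. The others, Trp73, Lhx1, Lhx5 and Ebf3, differed by -0.01, 0.12, 0.04 and -0.06 and did not pass. Of 7 excitatory neuron markers Neurod6 rose (0.70) and Slc17a6 (-0.51) and Emx1 (-0.49) fell, with list means of 8.74 to 9.11 and 8.98 to 9.03.

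The remaining marker lists had 0 calls in limma. Of 13 meningeal and fibroblast markers, 5 were lower and 0 higher at an unadjusted p under 0.05, and 11 of the 13 differences lay below 0. The list mean ran from 5.15 to 5.51 in controls and from 4.96 to 5.28 in mutants. Of 10 endothelial markers 2 were lower at that level (6.54 to 6.61 and 6.42 to 6.55), of 7 oligodendrocyte lineage markers 2 (6.04 to 6.24 and 6.02 to 6.11) and of 10 microglial markers 1 (4.39 to 4.48 and 4.36 to 4.48), with 0 higher in each. The counts in either direction were 0 of 6 for dividing progenitors (5.59 to 5.73 and 5.54 to 5.78), 1 of 6, higher, for choroid plexus (3.74 to 3.87 and 3.75 to 4.17), 0 of 2 for blood (4.57 to 4.71 and 4.43 to 4.67) and 2 of 6, 1 higher and 1 lower, for dissection stress (5.40 to 5.58 and 5.43 to 5.56). Of these 13 lists, the mural and interneuron lists had means that did not overlap between the groups.

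The 4 calls differed in how far they rested on single arrays. Bmp2 and Bmpr1b passed in all 8 fits with 1 array left out, Inhbb in 5 and Acvr1 in 2. The median SE of the 42 differences was 0.09, and the number of arrays limits the precision: for the 38 genes that did not pass, the 95% intervals reached at most 0.31 to either side of the estimate.

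**Figure D4:**
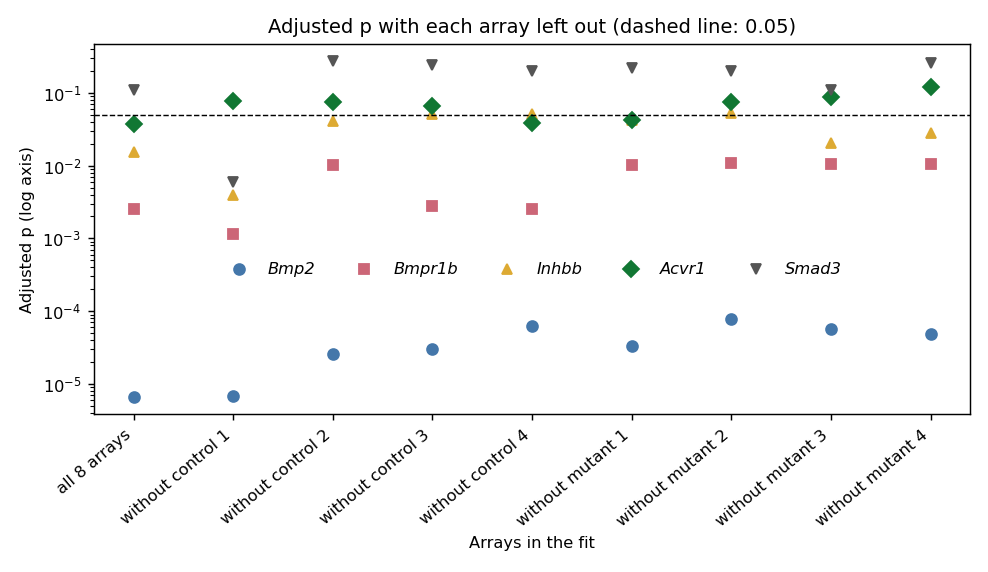
Adjusted p in limma (y axis, log scale) of 5 pathway genes with all 8 arrays and with each array left out (x axis). Bmp2 reaches at most 7.92e-05 and Bmpr1b at most 0.0109, Inhbb and Acvr1 cross the dashed line at 0.05, and Smad3 falls below it only without control 1, at 0.00604.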

How the data were processed

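Total RNA from 8 pups was hybridised to Affymetrix mouse gene arrays, and per the labels the submitters used BRB-ArrayTools. The deposited values were taken as log2 intensities already normalized between arrays; background correction, normalization, summarisation and log base were not given in the sources used here, and another base would change the fold changes but not the tests. The platform annotation gave 21789 of 35556 probe sets 1 gene symbol. For the 999 genes with several such probe sets the brightest was kept, giving 19938 genes, dim ones included.

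Genotype was tested with limma 3.58.1 in R 4.3.3 (moderated variances, two-sided, Benjamini-Hochberg over all genes, called under 0.05). The procedure was also run on simulated data with independent noise. Every planted difference there was larger than those of Inhbb and Acvr1, so the simulation does not cover differences of their size. The members and lists were chosen with earlier results of these data known. Text values follow a fixed rule: every array for genes that passed or whose groups did not overlap, and the 2 largest other differences of each role. The array values of Smad3, Inhba and Fst and the difference between Inhbb and Inhba were added after their values were seen. So were Bmpr1a, Chrd, Grem1, Hey1, Id1, Id3, Id4, Calb2, Trp73, Lhx1, Lhx5 and Ebf3. From the second list and the markers, genes that passed were named. Array annotation names no genome build, so gene positions are not given. Same-numbered control and mutant arrays were not treated as pairs. Alternatives covered normalization, dim genes, probe sets, array weights, variance, threshold, sex, replicate number and each array.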

Additional observations from a re-analysis of the deposited data

Results flagged for a closer look

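In 6 of the 86 groups of 4 arrays examined (the 42 genes and Bcl11a in each genotype), 1 array stood apart from the others by Dixon's 95% criterion, and chance alone flags about 5% of such groups. Among controls this was replicate 1 each time, with 7.12 against 6.80 to 6.85 for Eng, 4.78 against 4.28 to 4.35 for Grem1 and 5.10 against 4.86 to 4.90 for Ltbp1. Among mutants, replicate 3 read 5.96 for Acvr2b against 5.63 to 5.67, replicate 4 read 9.18 for Smad4 against 9.40 to 9.41, and replicate 1 read 6.18 for Ltbp4 against 6.39 to 6.43. None of these 6 genes passed the test between genotypes, and the cause of the separation was not tested.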

How the results depend on the processing

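Quantile normalization, the mean of probe sets, filters on the dimmest 30% and 50% of genes (41 and 30 of the 42 genes left), an intensity trend with robust variances and a threshold of 0.10 left 2 genes higher and 2 lower. Bmp2 kept its direction and its call under all 20 alternatives. Some of these could not change a difference: the mean of probe sets (1 for each of the 42 genes), the filters, the variance settings, the thresholds and the replicate block. They bear on the calls alone, and a threshold of 0.10 could not end a call. Centring arrays on the median also left 2 and 2, but 0 of the second list fell. Without variance moderation 0 of the 42 genes rose and 1 fell, and 1 of the second list rose and 0 fell, when 1.25% of all genes passed. At a threshold of 0.01, 1 rose and 1 fell, and 0 of the second list fell, when 2.24% of all genes passed. With inferred sex as a covariate 1 fell, and 7.14% of the 42 passed against 3.41% of all genes. With array weights 3 fell, and 11.9% of the 42 passed against 4.48% of all genes. With the replicate number as a block, 4 fell (Smad3 and Tgfbr1 in addition, adjusted p = 0.0427 and 0.0375 in limma) and 2 of the second list fell. Of the 42 genes 14.3% passed with the block, against 4.95% of all genes. The correlation of deviations was 0.109, 0.0558, 0.295 and 0.149 for the same-numbered pairs, and ran from -0.169 to 0.0754 for the other pairings. Control 2 and mutant 2 correlated best with another number, so the numbers were not taken as pairs. Whether arrays of the same number shared a source was not tested.

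With each array left out in turn, 1 to 2 of the 42 genes rose and 1 to 2 fell, and 3 to 4 of the second list rose and 0 to 2 fell. In these fits 4.76% to 9.52% of the 42 passed, against 2.93% to 4.08% of all genes. Groups did not overlap for 4 to 8 of the 42, and for 11.7% to 14.2% of all genes. The 8 came without control 1, when 13.7% of all genes did not overlap. Without control 1 the genes added were Acvr2a, Ltbp1, Ltbp3 and Smad3. Of the 42 genes, 25 kept their sign under all alternatives that could be fitted, the 4 that passed among them, and 17 did not. The alternatives that leave a difference unchanged could not turn a sign. Outside the fits with an array left out, the turned values were -0.0084 for Smad6 and -0.0073 for Gdf10 after quantile normalization, -0.0079 for Smad6, -0.013 for Gdf10 and -0.018 for Smad4 after centring, -0.027 for Gdf10, 0.0099 for Chrd and -0.025 for Id4 of the second list with array weights, and 0.014 for Tgfb2, -0.018 for Gdf10 and 0.014 for Smad5 with inferred sex. With each array left out in turn, the values ranged from -0.066 to 0.026 for Tgfb2, -0.073 to 0.010 for Bmp4, -0.11 to 0.040 for Bmp5, -0.039 to 0.047 for Gdf10, -0.00047 to 0.12 for Acvr1b, -0.038 to 0.0031 for Bmpr1a, -0.12 to 0.016 for Tgfbr3, -0.032 to 0.12 for Smad1, -0.031 to 0.061 for Smad4, -0.084 to 0.069 for Smad5, -0.071 to 0.083 for Smad9, -0.067 to 0.051 for Smad6, -0.18 to 0.029 for Nog, -0.042 to 0.037 for Chrd, -0.13 to 0.038 for Grem1, -0.00075 to 0.10 for Ltbp1, -0.17 to 0.0084 for Ltbp2 and -0.17 to 0.20 for Id4. The cause was not tested. With 4 arrays a group, small differences cannot be told from 0.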
